A study of Mus musculus with 10 samples.

Results

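The Rab genes of mouse brain were taken as the probe sets whose array annotation gave a single symbol starting with Rab and a digit. That rule found 105 of 22626 probe sets, which stand for 56 of the 12393 genes named by a single symbol. Of these, 50 encode Rab GTPases and 6 carry a Rab-based name without being a Rab: Rab11fip5, Rab26os, Rab3gap2, Rab3il1, Rab3ip and Rab5if. RNA of brain samples from C57BL/6 mice, an inbred laboratory strain, had been hybridised to 10 Affymetrix MOE430A arrays, which read a transcript with sets of short oligonucleotide probes. At 1 week of age there were 3 arrays labelled female and 3 labelled male, and at 8 weeks 2 labelled female and 2 labelled male. No treatment or transgene was named for any group, and the groups share strain and tissue. The labels name age and sex as the factors under study. They do not say whether each sample was 1 animal or which brain regions were taken, so the p-values measure the spread between these samples.

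Rab proteins are small GTPases that mark the membranes of a cell. In the GTP-bound form a Rab sits on its membrane and recruits effectors that move, tether or fuse vesicles, and in the GDP-bound form it is drawn back into the cytosol by GDP dissociation inhibitor. Exchange factors switch Rabs on and GTPase-activating proteins switch them off. In neurons the Rab3 forms are carried by synaptic and secretory vesicles, whereas Rab1, Rab5, Rab7 and Rab11 serve the secretory and endosomal routes that every cell needs.

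Deposited intensities were not on 1 scale, with trimmed means between 138 and 318, and were quantile-normalized. Levels below are these normalized intensities, and a change is the log2 difference of 8 weeks minus 1 week after adding 24 to each value, with its standard error. Quantile normalization makes every change relative to the rest of the array. On the deposited scale the median of all tested probe sets was itself higher at 8 weeks by 0.47 on the log2 scale, and after scaling to the spike-in controls by 0.19. Transcripts of the sex chromosomes went against the label on 4 of the 6 arrays at 1 week, so the labels at that age cannot be read as sex. Another 1-week array, labelled female, replicate 3, carried both Xist (866) and the Y-linked Eif2s3y (53.9). All 10 neuronal markers checked were above the filter on dim probe sets, with summed intensities of 20083 to 21604 at 1 week and 17905 to 18968 at 8 weeks. Of these neuronal markers 4 rose with age and 3 fell. Markers of other cells were counted as well. Among all genes tested, 21.9% rose and 24% fell at an adjusted p under 0.05 in limma. Of 7 tested oligodendrocyte markers 5 rose (summed 2391 to 11499, then 14115 to 18370). Of 10 astrocyte markers 5 rose (7025 to 9956, then 14658 to 15772) while 1 fell. Of 8 tested microglial markers 7 rose (2536 to 3049, then 3377 to 4490), and 6 of 7 tested markers of dividing progenitors fell (2119 to 3028, then 925 to 986). Endothelial markers held 2 that rose and 3 that fell of 9 (1849 to 2219, then 2196 to 2283). Of 9 cerebellar markers 6 rose (2520 to 8094, then 5344 to 19696), and of 4 tested anterior pituitary markers 2 rose (334 to 2712, then 1059 to 13556). The part of these shifts in the Rab results was not tested. In bulk RNA, fewer cells of a type and less RNA per cell cannot be told apart.

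Most Rab genes kept close to their 1-week level, and the few that moved did so in both directions. With each gene read by its brightest probe set, 45 of the 56 genes were above the filter and could be tested. Of these 45 genes, 6 were higher at 8 weeks (Rab28, Rab5c, Rab40b, Rab24, Rab21 and Rab29) and 6 lower (Rab3b, Rab11a, Rab34, Rab3d, Rab10 and Rab5if), at an adjusted p under 0.05 in limma. Among all 8148 genes tested 21.9% were higher and 24% lower. The Rab genes were thus called in 26.7% of cases and all genes in 45.9%. A change of at least 1.5-fold was called for 7 Rab genes, or 15.6%, beside 17.6% of all genes. The arrays of the 2 ages did not overlap for 10 Rab genes, or 22.2%, beside 35.9% of all genes. The median absolute log2 change was 0.16 for the Rab genes and 0.25 for all genes, and their median standard errors were 0.09 and 0.10. Counted by probe set, 77 of 105 were tested, of which 12 were higher and 14 lower, against a background of 22% and 24%. Without the 8-week array labelled male, replicate 1, only 3 Rab genes were called higher. The split depends on the scaling: on the deposited scale 40 of 46 Rab genes were called higher and 0 lower (limma), with 87% of Rab genes and 69.1% of all genes called either way. Scaled to spike-in controls, 15 were higher and 4 lower, or 41.3% of Rab genes called beside 39% of all genes. The lower share of calls among the Rab genes was therefore not seen under either of these scalings.

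**Figure D1:**
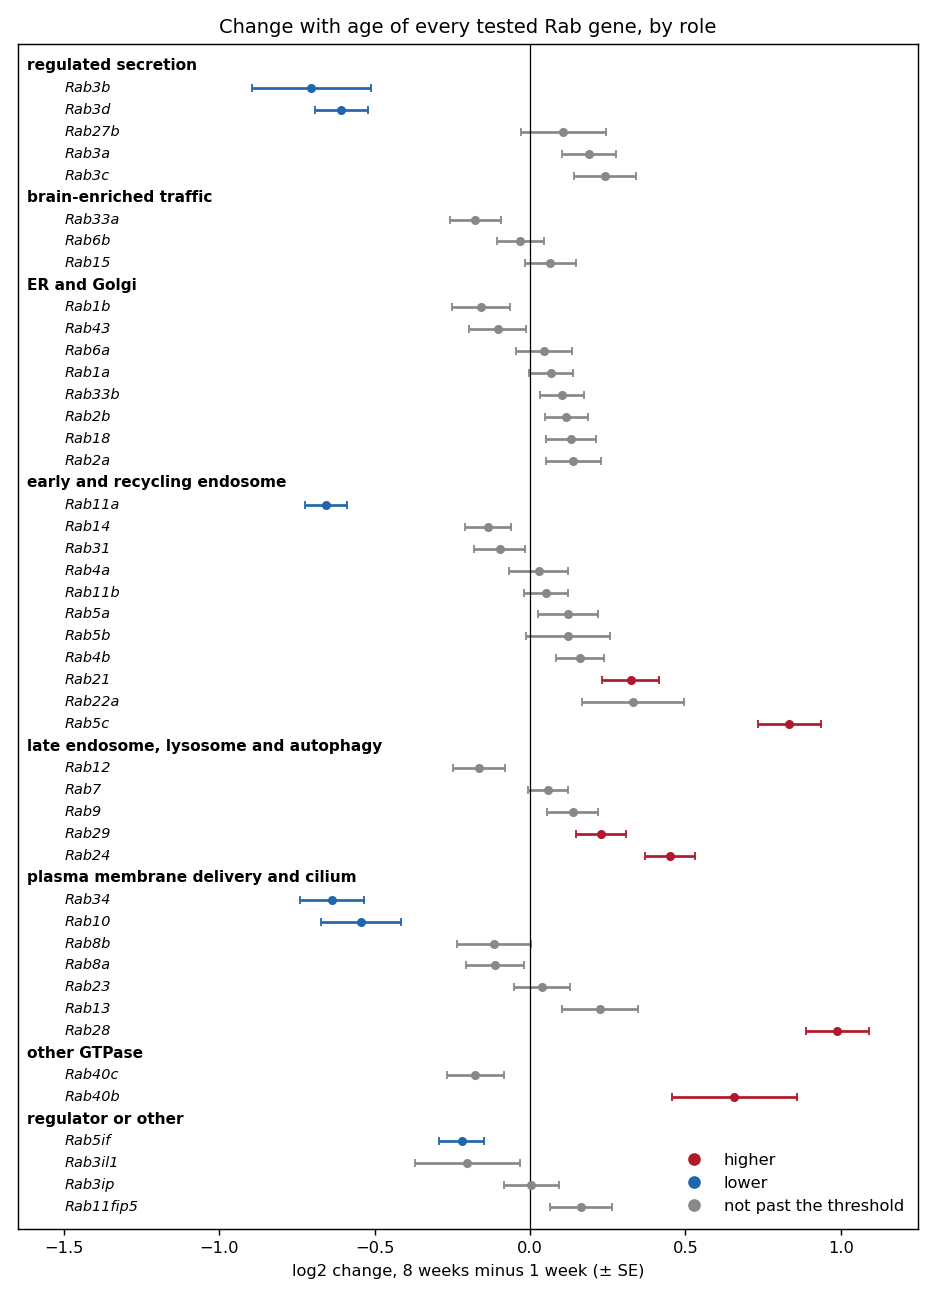
The log2 change from 1 week to 8 weeks (x axis, points with SE) is shown for each of the 45 tested Rab genes, grouped by role on the y axis. Red marks the 6 genes called higher, blue the 6 called lower and grey the 33 that did not pass the threshold, and no gene of the ER and Golgi group or the brain-enriched group is coloured.

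Regulated secretion, the group nearest to the synapse, holds the Rab3 forms and Rab27. Rab3b and Rab3d were lower at 8 weeks, and Rab3a, Rab3c and Rab27b did not pass the threshold. The difference between the forms was not tested. Rab3a is the main Rab of synaptic vesicles. Its level at 1 week ran from 1681 through a median of 1893 to 2383, and at 8 weeks it was 2104 and 2143 on the arrays labelled female and 2157 and 2390 on those labelled male. The ages overlapped, since 1 array at 1 week reached the top of the 8-week range. The means were 2198 ± 129.5 (SD, n = 4) at 8 weeks and 1934 ± 249 (SD, n = 6) at 1 week, a log2 change of 0.19 ± 0.09 (limma adjusted p = 0.0981). Rab3a passed the threshold when the 1-week array labelled male, replicate 1, was left out, with a change of 0.24 and an adjusted p of 0.0347 (limma). Rab3a was also called higher on the deposited scale (0.72, limma adjusted p = 9.78e-05) and with spike-in scaling (0.41, 0.0196).

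Rab3c, a close relative of Rab3a on synaptic vesicles, ran from 163 through 254 to 324 at 1 week. The 8-week arrays read 312, 290, 301 and 267, all inside the 1-week range. The log2 change was 0.24 ± 0.10 (limma adjusted p = 0.0718), and it passed without the 1-week array labelled female, replicate 2 (0.29, adjusted p = 0.0407). Like Rab3a it was called higher on the deposited scale (0.75) and with spike-in scaling (0.46).

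Rab3b, a form found in secretory cells and in some neurons, ran from 240 through 498 to 578 at 1 week. At 8 weeks it was 322 and 228 with the female label and 334 and 181 with the male label. Most 1-week arrays were above all of the 8-week arrays, and the ages overlapped through 1 low array at 1 week. Its mean was 266 ± 74.2 (SD, n = 4) at 8 weeks against 455 ± 134 (SD, n = 6), a log2 change of -0.71 ± 0.19 (limma adjusted p = 0.0125). Without the 8-week array labelled female, replicate 2, the change was -0.59 (adjusted p = 0.0572), and without the one labelled male, replicate 2, it was -0.50 (0.0554). Cerebellar markers ran the other way on several arrays. The 8-week array with the lowest Rab3b had their highest sum, 19696, and the one with the highest Rab3b had the lowest, 5344. At 1 week the array with the lowest Rab3b, 240, had the highest sum, 8094. The part of cerebellar content in the Rab3b change was not tested.

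Rab3d, best known from secretory granules of exocrine and endocrine cells, ran from 217 through 243 to 249 at 1 week. The 8-week values were 168 and 169 with the female label and 111 and 151 with the male label. No 8-week array reached the lowest array at 1 week. The mean fell from 239 ± 11.9 (SD, n = 6) to 150 ± 27.1 (SD, n = 4), a log2 change of -0.61 ± 0.09 (limma adjusted p = 2.86e-04). Its other tested probe sets fell by 0.65 and 0.97 on the log2 scale, so 3 of 3 tested probe sets moved together. Summed anterior pituitary markers, which mark another Rab3-bearing secretory tissue, were between 1059 and 13556 at 8 weeks, when Rab3d was low, and their part was not tested. Both falls kept their direction but not their call on the deposited scale (Rab3b -0.19, limma adjusted p = 0.341, and Rab3d -0.13, 0.429). With spike-in scaling both stayed lower (-0.48, adjusted p = 0.0468, and -0.41, 0.0301).

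Rab27b, which works beside Rab3 in docking secretory vesicles, ran from 104 through 125 to 165 at 1 week. At 8 weeks it was 141, 150, 176 and 115, which spans much of the same range, and the log2 change was 0.11 ± 0.14 (limma adjusted p = 0.555). Rab27a and Rab37, the remaining secretory Rabs with a probe set, were below the filter. Their brightest probe sets had means of 51.7 and 54.8 at 8 weeks and 48.6 and 44.1 at 1 week, with overlapping ages.

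**Figure D2:**
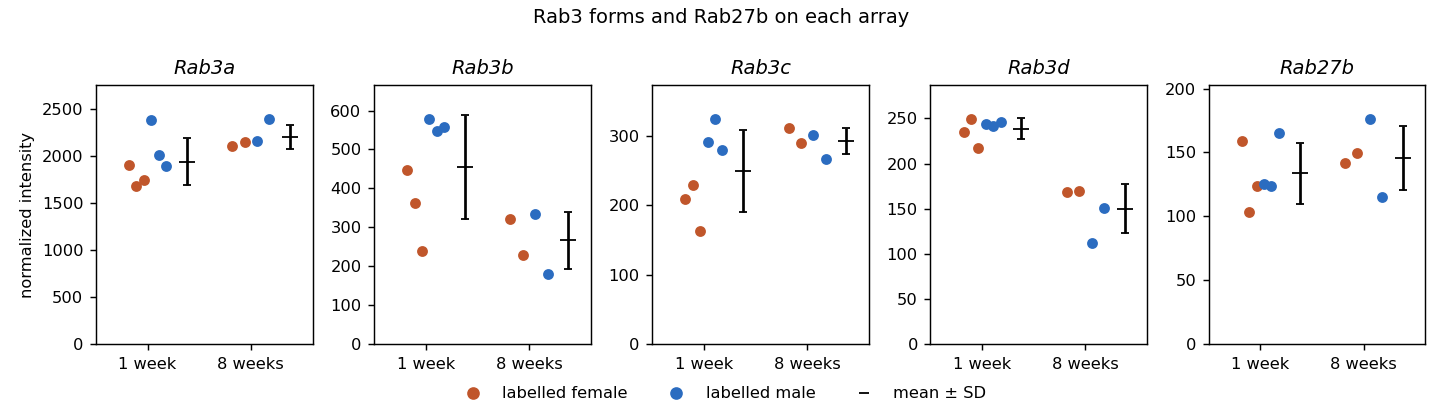
Normalized intensity (y axis, linear from 0) of the 4 Rab3 forms and Rab27b is plotted for every array at 1 week and 8 weeks, coloured by labelled sex, with mean and SD. Rab3d is the form whose 8-week arrays, 111 to 169, all lie below the 1-week arrays, 217 to 249, while Rab3a, Rab3c and Rab27b overlap between ages.

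Because 2 of the 4 Rab3 forms were called lower and the others were not called, the 250 bases before the annotated transcription start of each are shown side by side. The sequences are from RefSeq on GRCm38.p6, 5′ to 3′ on the strand of the gene. Rab3a lies at chr8:70754453-70754702 on the plus strand (the most upstream of 2 listed starts), Rab3b at chr4:108878820-108879069 on the plus strand, Rab3c at chr13:110280207-110280456 on the minus strand and Rab3d at chr9:21918184-21918433 on the minus strand. Capitals mark the GC box, searched as GGGCGG on both strands with overlapping matches counted.
Rab3a: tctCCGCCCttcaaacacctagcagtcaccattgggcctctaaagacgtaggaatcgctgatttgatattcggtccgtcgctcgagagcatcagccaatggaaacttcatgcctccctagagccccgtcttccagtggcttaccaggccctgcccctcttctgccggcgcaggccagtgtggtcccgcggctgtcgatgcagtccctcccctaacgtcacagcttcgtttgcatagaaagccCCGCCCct
Rab3b: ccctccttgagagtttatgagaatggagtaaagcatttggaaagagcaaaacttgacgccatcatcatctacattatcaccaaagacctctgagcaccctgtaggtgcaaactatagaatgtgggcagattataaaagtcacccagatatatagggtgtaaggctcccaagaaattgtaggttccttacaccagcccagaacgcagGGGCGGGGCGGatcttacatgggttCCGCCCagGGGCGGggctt
Rab3c: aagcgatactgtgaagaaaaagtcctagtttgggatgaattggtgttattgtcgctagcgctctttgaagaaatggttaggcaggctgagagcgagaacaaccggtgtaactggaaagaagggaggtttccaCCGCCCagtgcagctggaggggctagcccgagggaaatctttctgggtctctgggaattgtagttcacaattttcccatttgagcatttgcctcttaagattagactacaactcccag
Rab3d: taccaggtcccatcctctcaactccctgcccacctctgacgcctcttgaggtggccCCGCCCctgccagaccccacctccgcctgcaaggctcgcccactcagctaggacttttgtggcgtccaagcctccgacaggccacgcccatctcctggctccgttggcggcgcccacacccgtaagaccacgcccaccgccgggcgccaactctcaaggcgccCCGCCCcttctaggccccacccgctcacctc
The GC box was found 2 times for Rab3a, 4 times for Rab3b, 1 time for Rab3c and 2 times for Rab3d, and in 32.7% of all 32851 promoter windows of that length. The letters CCAAT, searched on both strands and so also as ATTGG, were found 2 times for Rab3a and 1 time for Rab3c, and not in the windows of Rab3b and Rab3d (33.8% of all windows). The letters TATAAA, searched on both strands too, were found in the window of Rab3b alone among the 4 (12.4% of all windows). Rab3a and Rab3d had 16 and 18 CpG dinucleotides and GC contents of 58.8% and 69.2%. Rab3b and Rab3c had 6 and 7 CpG dinucleotides and 48.8% and 47.6% GC, beside medians of 6 and 52.4% over all windows. The members that fell, Rab3b and Rab3d, thus lay on different sides of the median GC content. These matches describe the letters of the windows only.

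The brain-enriched Rabs changed little. Rab6b, the neuronal form of the Golgi Rab6, ran from 2048 through 2290 to 2312 at 1 week and was 2370, 2044, 2296 and 2104 at 8 weeks. The ages covered nearly the same range, and the log2 change was -0.03 ± 0.08 (limma adjusted p = 0.762). Rab15, a neuronal Rab of endocytic recycling, had a change of 0.06 ± 0.08, and Rab33a, a Golgi-related Rab of brain and immune cells, one of -0.18 ± 0.08 (adjusted p = 0.107). On the deposited scale the values of Rab6b and Rab33a turned positive (0.49 and 0.35, both called higher by limma).

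By their brightest probe sets, none of the 8 tested Rabs of the ER and Golgi passed the threshold. Their log2 changes lay between -0.16 for Rab1b and 0.14 for Rab2a. Counted by probe set, 4 of 19 were called, or 21.1% beside 46% of all probe sets. They are dimmer probe sets of Rab1a, Rab2a, Rab2b and Rab18, given further below. Rab6a, which serves retrograde traffic at the Golgi, ran from 1397 through 1721 to 1923 at 1 week and was 1667, 1821, 1877 and 1661 at 8 weeks. All 8-week values sat within the 1-week range, and the log2 change was 0.05 ± 0.09 (limma adjusted p = 0.71). Rab1a and Rab1b drive the first step from ER to Golgi, and their changes were 0.07 ± 0.07 and -0.16 ± 0.09. Rab1b was called lower without the 8-week array labelled male, replicate 1 (-0.27, limma adjusted p = 0.0259). Rab30, another Golgi Rab, was below the filter.

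Early and recycling endosomes held called genes of both directions, with Rab5c and Rab21 higher and Rab11a lower among 11 tested genes. That was 27.3% called, beside 45.9% of all genes. Rab5c, 1 of 3 Rab5 forms that control fusion of early endosomes, ran from 341 through 415 to 487 at 1 week. It then stood at 674 and 747 with the female label and 794 and 859 with the male label at 8 weeks. Every 8-week array was above every 1-week array, and the log2 change was 0.83 ± 0.10 (limma adjusted p = 9.57e-05). The other Rab5 forms did not pass: Rab5a changed by 0.12 ± 0.10 and Rab5b by 0.12 ± 0.13 on the log2 scale. Rab5a passed without the 8-week array labelled female, replicate 1 (0.24, adjusted p = 0.0475), and whether the 3 forms differ from each other was not tested.

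Rab11a, which returns cargo from recycling endosomes to the surface, ran from 783 through 883 to 930 at 1 week. The 8-week arrays read 552, 521, 560 and 535, a narrow band below all of the 1-week arrays. The log2 change was -0.66 ± 0.07 (limma adjusted p = 3.54e-05), and a further probe set fell by 0.53. Rab11b, its close relative in brain, had a change of 0.05 ± 0.07 with overlapping ages. The Rab11a fall was also called with spike-in scaling (-0.41, adjusted p = 0.0209) and was not on the deposited scale (-0.11, 0.468).

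Rab21, a Rab of early endosomes that carries integrins, ran from 276 through 333 to 361 at 1 week and was 389, 475, 412 and 386 at 8 weeks. The ages did not overlap, and the log2 change was 0.32 ± 0.09 (limma adjusted p = 0.0169). A further probe set rose by 0.44. The call was lost without the 8-week array labelled female, replicate 2 (0.25, adjusted p = 0.0787), and without the one labelled male, replicate 1 (0.30, 0.0571). Rab4a, which drives fast recycling, was the flattest of the group at 0.03 ± 0.09, with 374 through 441 to 479 at 1 week and 383, 473, 454 and 472 at 8 weeks. Rab22a had a change of 0.33 ± 0.16 that did not pass (adjusted p = 0.125), and passed without the 1-week array labelled female, replicate 1 (0.46, 0.00988). Its dimmest probe set went the other way and was called lower (-0.35, limma adjusted p = 0.026), and a further one was not called (0.13). Rab20 and Rab25 were below the filter.

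Of the 5 tested Rabs of late endosomes, lysosomes and autophagy, Rab24 and Rab29 were higher and 0 lower by their brightest probe sets. The share called was 40%, beside 45.9% of all genes. Rab24, linked to autophagy, ran from 254 through 295 to 320 at 1 week and was 397, 384, 414 and 427 at 8 weeks. The ages did not overlap, the log2 change was 0.45 ± 0.08 (limma adjusted p = 0.00114), and a further probe set rose by 0.31. Rab29, a partner of the kinase LRRK2, ran from 98.3 through 113 to 130 at 1 week and was 134, 133, 146 and 134 at 8 weeks. Its log2 change was small, 0.23 ± 0.08 (adjusted p = 0.0422), and the call was lost when any array but the 1-week one labelled female, replicate 1, was left out (adjusted p from 0.0554 to 0.127). Rab7, the main Rab of late endosomes, ran from 1654 through 1776 to 1792 and was 1803, 1819, 1770 and 1858 at 8 weeks. The ages overlapped and the log2 change was 0.06 ± 0.07 (adjusted p = 0.504). A dimmer Rab7 probe set was called lower (-0.29 ± 0.07, limma adjusted p = 0.00487) and is given further below. Rab32, Rab38 and Rab7b were below the filter.

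Among the 7 tested Rabs of delivery to the plasma membrane and cilium, Rab28 was higher and Rab34 and Rab10 were lower. That was 42.9% called, beside 45.9% of all genes. Rab28, a Rab of cilia and photoreceptors, had the largest rise of any Rab gene by its brightest probe set. It ran from 227 through 279 to 308 at 1 week and was 575 and 533 with the female label and 607 and 541 with the male label at 8 weeks. The groups were far apart, and the mean rose from 273 ± 32.5 (SD, n = 6) to 564 ± 34.2 (SD, n = 4). The log2 change was 0.99 ± 0.10 (limma adjusted p = 3.3e-05), and a further probe set rose by 0.74. Rab28, Rab5c and Rab24 were called higher under each of the scalings tried.

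Rab34, needed for the early steps of cilium formation, ran from 343 through 417 to 445 at 1 week and was 209, 233, 251 and 307 at 8 weeks. No 8-week array reached the 1-week range, and the log2 change was -0.64 ± 0.10 (limma adjusted p = 6.48e-04). A further probe set fell by 0.39. Rab10, which delivers membrane to growing axons and glucose transporters to the surface, ran from 1183 through 1442 to 1920 and was 883, 1108, 1051 and 1008 at 8 weeks. All 8-week values were below the 1-week range, and the log2 change was -0.54 ± 0.13 (adjusted p = 0.00609). The other tested Rab10 probe sets did not pass (0.08, limma adjusted p = 0.578, and -0.07, 0.772). On the deposited scale Rab34 was at -0.13 (adjusted p = 0.429) and Rab10 turned to 0.003 (0.987). With spike-in scaling Rab34 stayed lower (-0.41, adjusted p = 0.0189) and Rab10 was not called (-0.30, 0.114).

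Rab23, a brake on Hedgehog signalling, had a log2 change of 0.04 ± 0.09, with 169 through 206 to 224 at 1 week and 216, 214, 204 and 194 at 8 weeks. Rab8a and Rab8b, which carry membrane to the cilium and cell surface, had changes of -0.11 ± 0.09 and -0.12 ± 0.12. Rab13, a Rab of cell junctions, had one of 0.22 ± 0.12 that passed without the 1-week array labelled male, replicate 3 (0.31, limma adjusted p = 0.034). Rab17 was below the filter.

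Rab40b and Rab40c belong to a branch of the family that joins ubiquitin ligases. Rab40b ran from 75.3 through 119 to 172 at 1 week and was 259, 161, 222 and 148 at 8 weeks. The ages overlapped, as 1 array at 1 week was above the lower pair at 8 weeks, and the log2 change was 0.66 ± 0.20 (limma adjusted p = 0.0217). It was lost without the 8-week array labelled female, replicate 1 (0.50, adjusted p = 0.0955), or the one labelled male, replicate 1 (0.53, 0.0899). These 2 arrays had the highest summed pituitary markers, 13556 and 4814, against 1279 and 1059 on the others at 8 weeks. The 1-week arrays were mixed. The one with the highest sum, 2712, labelled female, replicate 2, read only 87.8 for Rab40b. The one labelled female, replicate 1, with a sum of 1221, read 172. The part of that tissue in the rise was not tested. Rab40c ran from 363 through 435 to 543 and was 404, 357, 399 and 354 at 8 weeks, a log2 change of -0.18 ± 0.09 (adjusted p = 0.14).

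**Figure D3:**
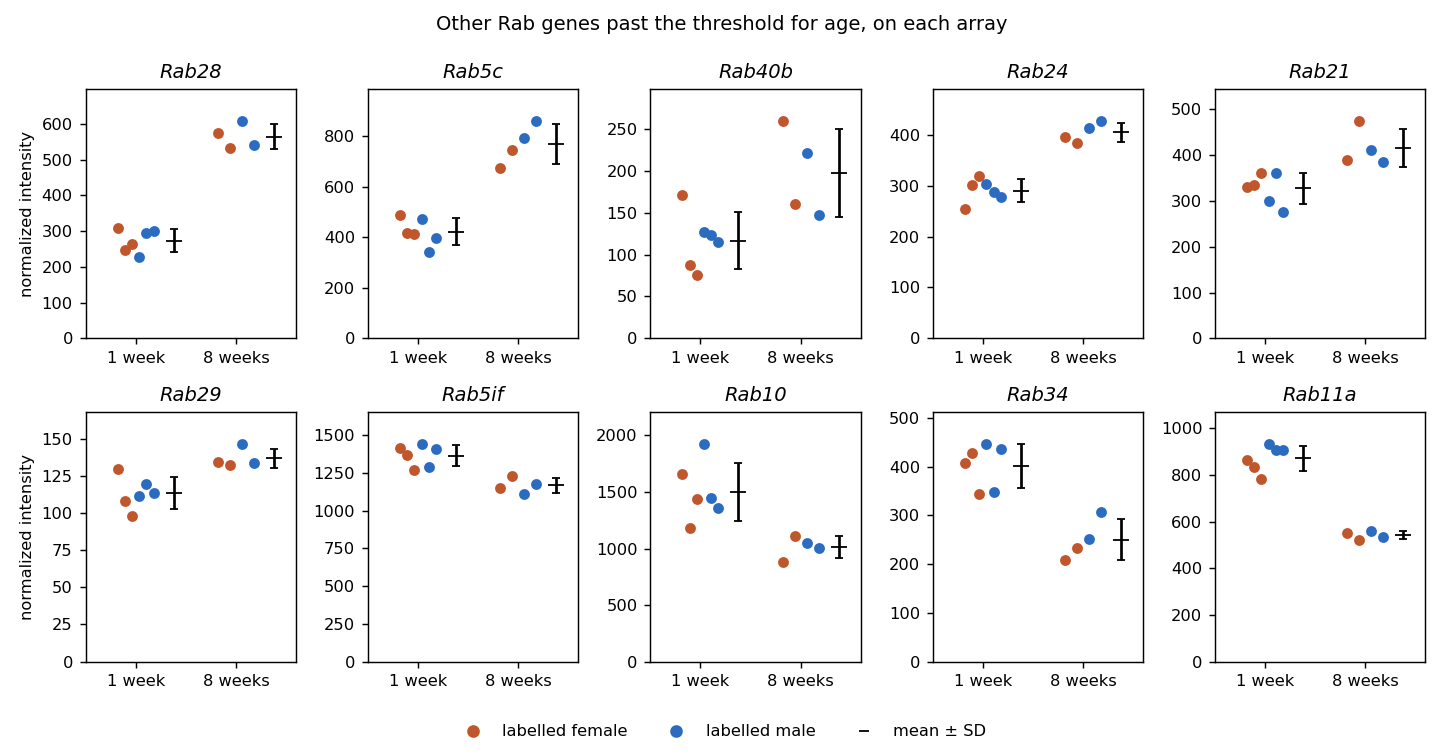
Normalized intensity (y axis, linear from 0) on every array at 1 week and 8 weeks is shown for the 10 Rab-named genes outside the Rab3 forms that passed the threshold, coloured by labelled sex, with mean and SD. Rab28, Rab5c, Rab24 and Rab11a show 2 separate clouds, whereas the 8-week arrays of Rab40b, 148 to 259, overlap those at 1 week.

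The Rabs that run housekeeping routes were set beside the synaptic and secretory ones. Of 19 housekeeping genes, all tested, 2 were higher (Rab5c and Rab21) and 2 lower (Rab11a and Rab10), or 21.1% called beside 45.9% of all genes, with a median log2 change of 0.07. Of 7 synaptic and secretory genes 5 were tested, 0 were higher and 2 lower (Rab3b and Rab3d), or 40% called, with a median of 0.11. Over all genes the median was -0.02. Both groups held members on either side of 0, and the difference between them was not tested. Rab35 and Rab26, which were also listed, had no probe set with a single symbol and were not analysed here.

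Among the 6 genes with a Rab-based name that are not Rabs, 4 were tested. Rab5if, named for an interaction with Rab5, was lower. It ran from 1266 through 1389 to 1438 at 1 week and was 1150, 1232, 1110 and 1178 at 8 weeks, with no overlap and a log2 change of -0.22 ± 0.07 (limma adjusted p = 0.0311). The call was lost when any array was left out other than the 1-week ones labelled female, replicate 3, and male, replicate 2 (adjusted p from 0.0513 to 0.104). On the deposited scale the change turned to 0.31. Rab3ip, an exchange factor that switches on Rab8, was at 0.004 ± 0.09, with 118 through 141 to 161 and then 143, 136, 148 and 141. Rab11fip5, a Rab11 effector, and Rab3il1, another exchange factor, had changes of 0.16 ± 0.10 and -0.20 ± 0.17. Rab3gap2, the partner subunit of the GTPase-activating complex for Rab3, was left out by the filter because of low values at 1 week, from 36.3 through 50.7 to 63.5. At 8 weeks it was 101, 118, 128 and 128, above every 1-week array. In a fit without the filter its log2 change was 0.91 ± 0.09 (limma adjusted p = 1.36e-04). It was singled out after its values were seen. Rab26os, a transcript opposite Rab26, was below the filter with overlapping ages.

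Several Rab genes were read by more than 1 probe set, which can hit different ends or isoforms of a transcript. Of 28 such genes 20 had more than 1 tested probe set, and 0 of these had probe sets called in opposite directions. Rab2a, a Rab between ER and Golgi, had the widest gap. Its dimmest tested probe set ran from 80.7 through 98.3 to 151 at 1 week and was 305, 217, 228 and 220 at 8 weeks, a log2 change of 1.06 ± 0.15 (limma adjusted p = 3.02e-04). The 3 brighter Rab2a probe sets did not pass. Rab7 was split as well: its dimmer probe set fell from between 693 and 773 to between 579 and 626 (-0.29 ± 0.07, adjusted p = 0.00487), while the brighter one did not pass. A dimmer probe set was also called lower for Rab1a (-0.24), Rab14 (-0.38) and Rab22a (-0.35), and higher for Rab18 (0.40) and Rab2b (0.27). For Rab10, whose brightest probe set fell, 2 further probe sets did not pass, and the mean over all 3 was -0.18 on the log2 scale. These genes were picked out after their values were seen.

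**Figure D4:**
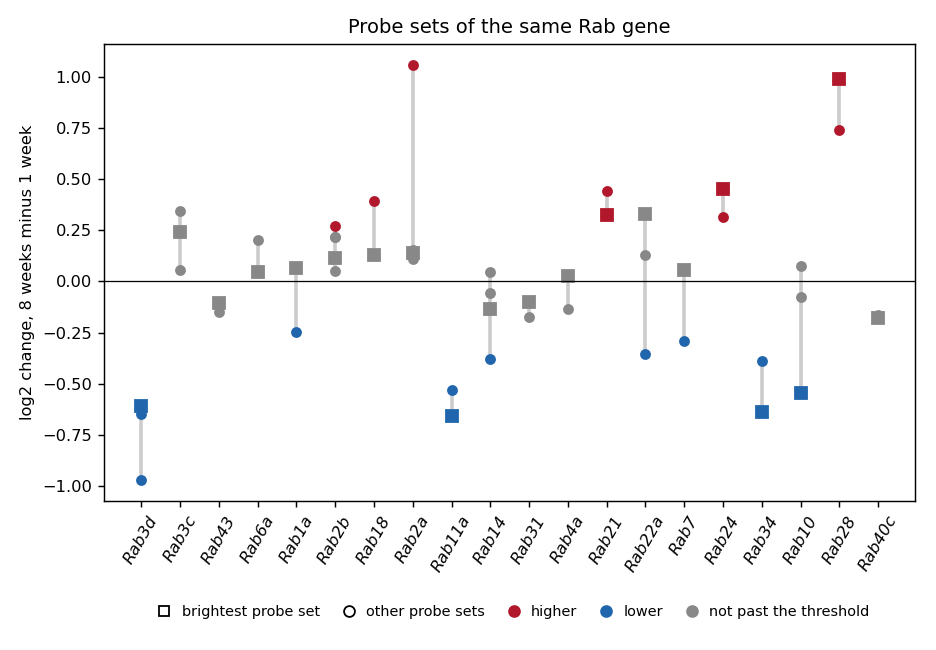
Each column is a Rab gene with more than 1 tested probe set, and the y axis gives the log2 change from 1 week to 8 weeks. Squares are the brightest probe set and circles the others, coloured by call: the probe sets of Rab3d, Rab11a, Rab21, Rab24, Rab28 and Rab34 agree in call, while Rab2a, Rab7, Rab1a and Rab22a hold a called circle beside a grey square.

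Carriers, regulators and effectors of the Rabs were next to be counted. Of 111 genes listed as carriers, regulators or effectors, 69 had a probe set and 55 were tested, with 20 higher and 9 lower, or 52.7% called beside 45.9% of all genes. The difference between these genes and the Rab genes was not tested. Of the 6 tested genes for delivery and prenylation, Rabac1, a Golgi protein that binds prenylated Rabs, rose (0.37 ± 0.09, limma adjusted p = 0.00558) and the others did not pass. Among 9 tested exchange factors 4 rose and 2 fell, or 66.7% called beside 45.9% of all genes. Dennd5a, which acts on Rab39 and binds Rab6, rose by 0.76 ± 0.08 (limma adjusted p = 4.39e-05), Madd, the exchange factor of Rab3 and Rab27, by 0.48 ± 0.08, and Rabgef1, which activates Rab5, by 0.34 ± 0.09. Hps4, part of the exchange factor for Rab32 and Rab38, fell by 0.44 and Sbf2 by 0.30 on the log2 scale, and both turned positive without a call on the deposited scale (0.057 and 0.26). The Sbf2 call was lost without the 8-week array labelled female, replicate 2 (-0.26, limma adjusted p = 0.0772), or the one labelled male, replicate 2 (-0.25, 0.0825).

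GTPase-activating proteins were split, with 3 higher and 3 lower of 15 tested, or 40% called beside 45.9% of all genes. Tbc1d15, which acts on Rab7, ran from 102 through 137 to 167 at 1 week and was 275, 282, 257 and 297 at 8 weeks. The ages did not overlap, and the log2 change was 0.92 ± 0.11 (limma adjusted p = 7.32e-05). Tbc1d24, a synaptic protein of this family, ran from 517 through 588 to 644 and was 242, 258, 317 and 261 at 8 weeks. Its fall, -1.05 ± 0.09 (adjusted p = 1.07e-05), was also called on the deposited scale at -0.52 (0.00295). Tbc1d22a and Evi5 rose by 0.64 and 0.41, and Tbc1d13 and Tbc1d14 fell by 0.40 and 0.34 on the log2 scale, and turned positive without a call on the deposited scale (0.053 and 0.20). Tbc1d14 lost its call without any of 6 arrays: replicate 1 or 2 labelled female or replicate 3 labelled male at 1 week, and replicate 1 or 2 labelled female or replicate 2 labelled male at 8 weeks. Its adjusted p then lay between 0.0515 and 0.114 (limma).

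All 4 tested presynaptic and secretory effectors rose, beside 21.9% of all genes, and 3 more (Mlph, Sytl1 and Sytl4) were below the filter. The 4 were also called higher with spike-in scaling and on the deposited scale, where 69.1% of all genes were called either way. Rph3a, rabphilin, binds Rab3 and Rab27 on vesicles. It ran from 98.3 through 103 to 131 at 1 week and was 176, 200.4, 217 and 237 at 8 weeks, above every 1-week array (0.79 ± 0.09, limma adjusted p = 5e-05). Rims2, an active-zone scaffold that binds Rab3, ran from 206 through 272 to 276 and was 369, 357, 348 and 420 at 8 weeks (0.51 ± 0.10, adjusted p = 0.00241). Sytl2, a Rab27 effector, rose by 0.54 ± 0.14 and Myo5a, a motor for secretory cargo, by 0.41 ± 0.10. Leaving out the 4 arrays that went against their sex label kept only those labelled female, replicate 3, and male, replicate 1, at 1 week. In a model of age alone on the arrays kept, Sytl2 was not called (0.58, limma adjusted p = 0.111). Neuronal markers beside them were mixed, with 4 that rose and 3 that fell of 10. Rab3a, which Rph3a and Rims2 bind, did not pass the threshold after quantile normalization and was called higher under both other scalings (0.72 and 0.41). The difference between Rab3a and these effectors was not tested.

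Effectors of endosomes, Golgi and lysosomes held 8 that rose and 4 that fell of 21 tested, or 57.1% called beside 45.9% of all genes. Fyco1, which couples Rab7 to kinesin, rose by 0.91 ± 0.11 (limma adjusted p = 9.18e-05). Inpp5b, a phosphatase that binds several Rabs, rose by 0.60 ± 0.14, and Eea1, the Rab5 tether of early endosomes, by 0.58 ± 0.12. Myo5b, the Rab11 motor, fell by 0.61 on the log2 scale (adjusted p = 0.0164), Appl1, a Rab5 effector, by 0.42 and Ehbp1, which links Rab8 and Rab10 to actin, by 0.40, the last 2 turning to 0.030 and 0.11 without a call on the deposited scale. The Myo5b call was lost on the deposited scale (-0.14, adjusted p = 0.449) and with spike-in scaling (-0.41, 0.0716). It was lost as well without the 8-week array labelled female, replicate 2 (-0.53, 0.0666), or the one labelled male, replicate 2 (-0.50, 0.0721). Appl1 lost its call without the 8-week array labelled female, replicate 1 (-0.40, limma adjusted p = 0.0515), or the one labelled male, replicate 2 (-0.36, 0.0646).

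Labelled sex was compared as well, and no Rab probe set passed the threshold. Over both ages 0 of 77 were called and 0% of all probe sets, with an unadjusted p under 0.05 for 2 of the 77 (2.6%) and 3.45% of all. At 8 weeks, where the sex chromosome transcripts followed the labels, 0 were called and 0% of all, with an unadjusted p under 0.05 for 1 (1.3%, Rab3d) and 2.54% of all. The interaction of age and label gave 0 and 0% of all, with 5 (6.49%) and 5.59% at an unadjusted p under 0.05. At 1 week Rab3b was 447, 362 and 240 with the female label and 578, 548 and 557 with the male label. Rab3c was 209, 230 and 163 against 291, 324 and 279. Both were thus higher on all 3 arrays labelled male, but 2 of those 3 carried sex chromosome transcripts against their label. The interaction was -0.81 ± 0.38 for Rab3b (limma unadjusted p = 0.0594, adjusted p = 0.857) and -0.61 ± 0.20 for Rab3c (0.0118, adjusted p = 0.857). In a model of age alone without the 4 arrays that went against their label, Rab3b was at -0.50 (adjusted p = 0.319), Rab21 at 0.31 (0.113) and Rab5if at -0.21 (0.182). The other 9 called Rab genes kept their call. That fit kept only the arrays labelled female, replicate 3, and male, replicate 1, at 1 week. It called 29.7% of all genes, beside 45.9% in the main fit. The array that carried both kinds of sex chromosome transcript stayed in that fit.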

How the data were processed

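The deposited table gave 1 intensity per probe set and array, and the values were treated as linear because they appeared to be so. Detection calls were not used, and the software that summarised the probes is not given in the sources used here. Of 22690 probe sets 64 controls were left out. Because trimmed means (2% per tail) differed by more than 5%, arrays were quantile-normalized. A pseudocount of 24, the 20th percentile of deposited values, was added before log2. The dimmest probe sets, those whose mean log2 fell short of the 40th percentile, were not tested, leaving 13576 probe sets and 8148 genes. The brightest single-symbol probe set stood for its gene.

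The limma package (3.58.1, under R 4.3.3) fitted 1 mean for each combination of age and sex label, and variances were moderated with eBayes. Tests were two-sided, with Benjamini-Hochberg adjustment over all 13576 probe sets and a threshold of 0.05. In simulated data of 22626 probe sets, 100 were changed between ages by a log2 of 0.5 and 100 by a log2 of 1. Of these, 61% and 88% were recovered. In the real data 46% of tested probe sets were called, and the adjustment depends on that share. The simulated rates therefore do not give the recovery in the real age comparison. The number of arrays limits the precision.

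Members, roles and lists were chosen with earlier results of these data known. Per-array values are given for the Rab3 forms, Rab27b, up to 3 called genes of each role with the largest change, and 1 gene near 0 per role. In the lists of carriers, regulators and effectors, the 3 largest called changes in each direction were named, and Myo5a as the fourth of its list. Symbols of all 56 members matched RefSeq. Alternatives covered the pseudocount, scaling, filter, model, probe set rule and each array left out.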

Additional observations from a re-analysis of the deposited data

Results flagged for a closer look

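In 2 of 44 groups of values checked, 1 array stood far from the rest of its group, and chance gives such a distance in about 1 of 20 groups. Rab6b at 1 week read 2048 on the array labelled male, replicate 2, and the nearest array read 2264. Rab29 at 8 weeks read 146 on the array labelled male, replicate 1, and the nearest read 134.4.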

How the results depend on the processing

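The counts of Rab genes called by limma, 6 higher and 6 lower, depended most on the scaling. They became 40 and 0 on the deposited scale and 15 and 4 with spike-in scaling, and 3 and 4 with a minimum of 1.5-fold. With 1 array left out, the higher count ran from 3 to 8 and the lower from 4 to 6. Correlations of deviations from the group means between same-numbered arrays ran from -0.0251 to 0.1925. They were not compared with those of differently numbered arrays, so they do not decide whether replicate numbers pair the arrays. A replicate block gave 5 higher and 5 lower, and lost Rab29 and Rab5if. On the deposited scale the log2 changes of these genes turned positive: Rab10 0.0026, Rab12 0.38, Rab14 0.41, Rab1b 0.40, Rab31 0.45, Rab33a 0.35, Rab40c 0.35, Rab43 0.35, Rab5if 0.31, Rab6b 0.49, Rab8a 0.43 and Rab8b 0.42. Among regulators and effectors they were Appl1 0.030, Ehbp1 0.11, Hps4 0.057, Sbf2 0.26, Tbc1d13 0.053 and Tbc1d14 0.20. With spike-in scaling Rab5if turned to 0.0052. The deposited scale holds an overall shift of 0.47 between ages in the median of all probe sets, and spike-in scaling one of 0.19, and what the shift comes from was not tested. Pseudocounts of 1 and 64, scaling to the same median, an intensity trend and array weights moved 0 to 2 calls of the 45 Rab genes each, and none reversed. Over all 13576 probe sets the counts of 2993 higher and 3253 lower became 8673 and 629 on the deposited scale. With spike-in scaling 1223 were lower, and 1973 were lower in a model of age alone without the 4 arrays that went against their label. A minimum of 1.5-fold left 1246 higher and 1243 lower. Of the Rab probe sets, 12 higher and 14 lower became 60 and 1 on the deposited scale, 26 and 6 with spike-in scaling, and 5 and 6 at 1.5-fold. Without those 4 arrays 7 were lower, and 9 without the 8-week array labelled male, replicate 2. Genes near the filter have low intensities, and 11 Rab genes could not be tested there.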
